A study of Mus musculus with 12 samples.

Results

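Liver RNA of Otud3 knockout mice given the carcinogen diethylnitrosamine (DEN) was compared with liver RNA of Otud3 knockout mice without DEN. The comparison used 6 of the series' 12 libraries, all those labelled Otud3 knockout, 3 with DEN and 3 without, and each group was 3 independent mice per the series' design text. The mice were males on the C57BL/6 strain, bred with wild-type (WT) littermates. DEN had been injected once into the peritoneum at 25 mg/kg in saline at 15 days of age, and the liver was taken 30 weeks afterwards. For the mice without DEN the labels give neither an age at collection nor a saline injection, so age and injection may differ along with DEN and cannot be told apart from it. The design text speaks of cancer tissue, whereas the sample labels say only liver and do not state whether a piece held tumour. They do not say which part of Otud3 was removed or in which cells.

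Otud3 is a deubiquitinase, an enzyme that takes ubiquitin chains off other proteins. DEN is turned into a DNA-alkylating agent by cytochrome P450 enzymes of hepatocytes, and a single dose to young mice leads to liver tumours months later. Besides hepatocytes, the liver holds sinusoidal endothelial cells, which line its capillaries and clear particles from the blood, Kupffer cells, which are its resident macrophages, and stellate cells, which lay down matrix. In whole tissue, fewer cells of a type and less RNA per cell cannot be told apart, and this holds for every cell type list below.

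Otud3 (Entrez gene 73162, chr4:138891063-138914026, GRCm38.p6) had reads in all 6 libraries. The counts were 409, 301 and 201 without DEN and 290, 406 and 407 with DEN, against 350 to 560 in the 6 wild-type libraries. The counts of the 2 knockout groups overlapped. Scaled by TMM to counts per 1e+06 counts (CPM), Otud3 was at 15.7, 10.7 and 7.2 without DEN and at 8.37, 12.04 and 12.14 with DEN, a log2 fold change of -0.04 ± 0.29 (SE, edgeR quasi-likelihood, Benjamini-Hochberg adjusted p = 0.944). The deposited TPM, a length-scaled share of transcripts, were 3.33, 2.05 and 1.59 without DEN and 5.15, 3.25 and 3.9 with DEN. DEN replicate 1 thus had the highest TPM and, of the DEN libraries, the lowest count. Gene-level reads may come from a part that was not removed, so they do not check the genotype, and the livers are called labelled knockout from here on.

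The 6 libraries held 29721783 to 30996612 counts each. The 20 most abundant genes took 28.4% to 31.4% of the counts without DEN and 24.0% to 25.7% with DEN, and the TMM factors were 0.842 to 0.939 and 1.08 to 1.14. Directions are therefore relative to the median gene, which lay at -0.04 with TMM and at 0.25 with scaling by library size alone. The first principal component of log2 CPM (47.05% of the variance) set the DEN libraries at 16.7 to 21.6 and the others at -42.7, -10.9 and -4.24, the lowest being no DEN replicate 1. The second component (30.24% of the variance) set no DEN replicate 3 at -35.5 and the other libraries at -5.11 to 19.9. Besides that library, a pair of libraries stood apart in single groups of genes. No DEN replicate 1 was far higher in acute phase genes, and DEN replicate 1 was far higher in macrophage and B cell genes. Values with and without each are given beside the groups they touch.

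Of 12665 genes tested, 52 (0.411%) differed with DEN at an adjusted p under 0.05 by edgeR's quasi-likelihood test. Of these, 34 (0.268%) rose and 18 (0.142%) fell. The genes that rose included 7 of the endothelial list, both inducible Hsp70 genes, the P450 gene Cyp2b9 and the desaturase gene Scd2. The genes that fell included the inflammasome-related gene Nlrp12, the urinary protein gene Mup10 and the coagulation factor gene F11. In all 52 every DEN library lay on one side of every library without DEN, as it did in 4032 of all genes tested (31.8%). At an unadjusted p under 0.05 there were 1381 genes higher (10.9%) and 1582 lower (12.5%). DESeq2 on the same counts called 1237 genes (9.77%), 675 higher (5.33%) and 562 lower (4.44%), so the number of genes called rests largely on the test. By edgeR none of the 52 calls was kept when any 1 DEN library or no DEN replicate 2 was left out, whereas 120 genes were called without no DEN replicate 1 and 197 without no DEN replicate 3. All 52 kept their direction in each of these fits. With library size scaling 839 genes were called, and 94.6% of them were higher, against 65.4% with TMM.

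**Figure D1:**
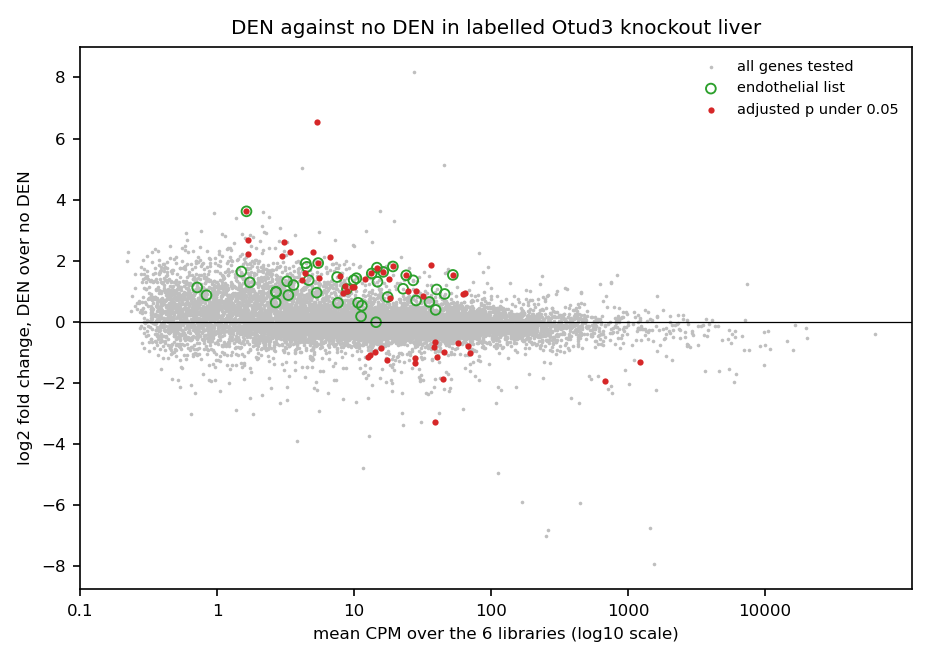
Log2 fold change with DEN (y axis) against mean CPM over the 6 labelled-knockout libraries (x axis, log10 scale) for the 12665 genes tested. Grey points are all genes, red points the 52 past an adjusted p of 0.05, and green circles the 40 genes of the endothelial list, of which 39 lie above 0.

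**Figure D2:**
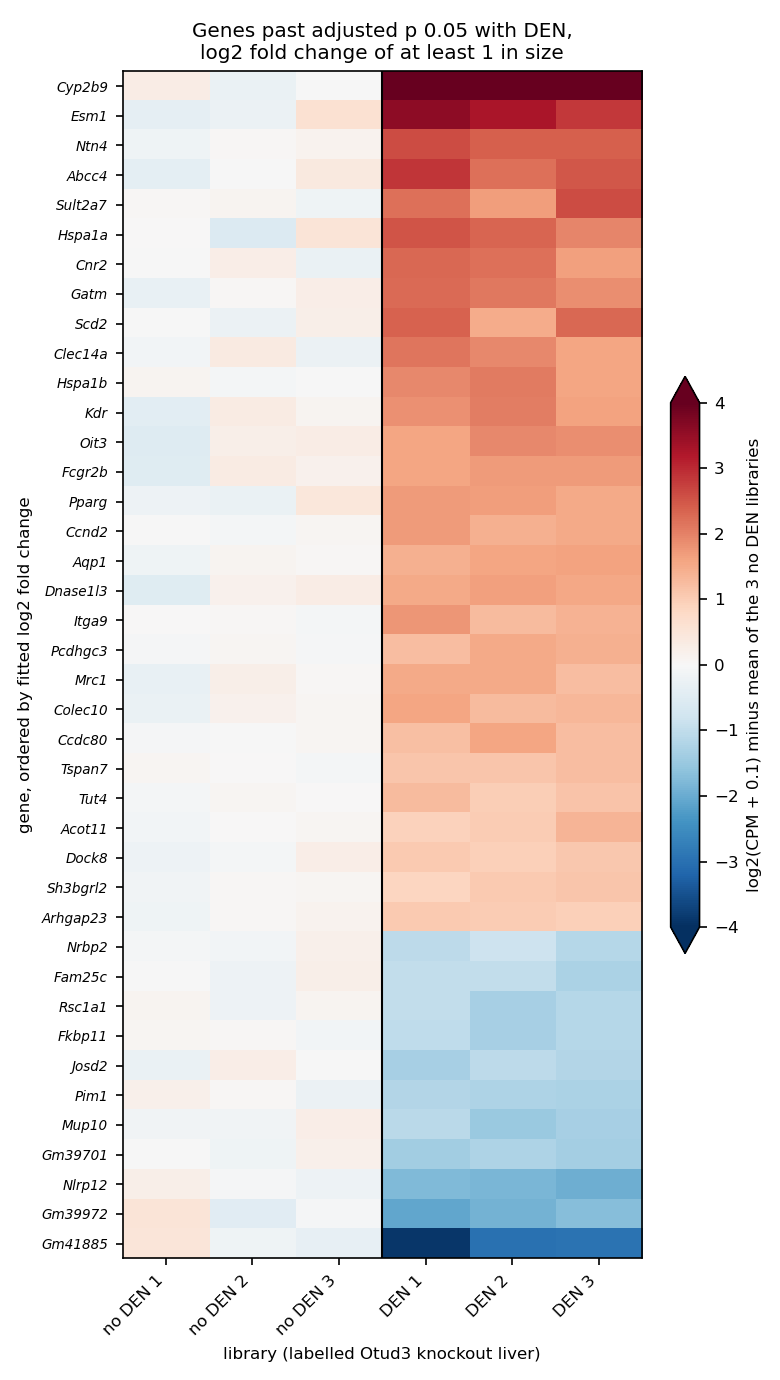
Each row is 1 of the 40 called genes with a log2 fold change of at least 1 in size, and each column 1 library, in colour the log2 of CPM + 0.1 minus the gene's mean over the 3 libraries without DEN. In every row the 3 DEN libraries lie on one side of the 3 others, with Cyp2b9 (log2 fold change 6.53) at the top and Gm41885 (-3.28) at the bottom.

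Endothelial genes held more calls than any other of the 40 lists examined. Of 40 genes that mark liver sinusoidal and vascular endothelium, all were tested, 7 rose and 0 fell, against 0.268% of all genes called higher. The list's median log2 fold change was 1.16, where that of all genes was -0.04, and 39 of 40 members lay above 0, where 46.0% of all genes did. At an unadjusted p under 0.05, 34 were higher and 0 lower, and DESeq2 called 26 higher and 0 lower. The members' summed level was 256, 394 and 423 CPM without DEN and 737, 769 and 734 CPM with DEN, so the groups did not overlap. The lowest sum was in no DEN replicate 1, the library with high acute phase genes. Without it the median was 0.97 and 13 members rose. Without no DEN replicate 3 10 members rose, and without no DEN replicate 2 or any 1 DEN library 0 passed, while the median stayed between 1.18 and 1.43.

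Kdr encodes the main receptor for vascular endothelial growth factor. It stood at 6.13, 10.4 and 8.99 CPM without DEN and at 29.4, 34.4 and 25.8 CPM with DEN. Every DEN library was above every other, and the log2 fold change was 1.81 ± 0.22 (edgeR adjusted p = 0.0381). Aqp1, a water channel of vascular walls and bile ducts, rose with the smallest p of the list, from 23.8, 29.0 and 28.1 CPM to 71.4, 80.5 and 82.8 CPM (1.54 ± 0.12, edgeR adjusted p = 0.0217). Its lowest DEN value was well above its highest value without DEN. Esm1, a proteoglycan secreted by endothelial cells, had the largest fold change of the list. It went from 0.153, 0.178 and 0.394 CPM to 3.81, 3.06 and 2.21 CPM (3.62 ± 0.43, edgeR adjusted p = 0.0381), on only 4, 5 and 11 counts without DEN. Clec14a, a surface lectin of endothelial cells, rose from 2.07, 2.88 and 1.86 CPM to 10.2, 8.81 and 6.92 CPM (1.92 ± 0.24, edgeR adjusted p = 0.0457). Oit3, a zona pellucida-domain protein made by sinusoidal cells, rose from 4.52, 7.51 and 7.85 CPM to 19.6, 24.7 and 23.7 CPM (1.77 ± 0.23, edgeR adjusted p = 0.0457). In both genes the groups were clearly apart. The other members that rose, named after their values were seen, were Fcgr2b, the inhibitory IgG receptor through which sinusoidal cells take up immune complexes (1.64 ± 0.21), and Dnase1l3, a secreted DNase (1.52 ± 0.21).

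Promoters are shown for 2 of these genes with a RefSeq entry, Aqp1, which had the smallest p of the list, and Clec14a, chosen after their values were seen, so that the sequence before an endothelial gene that rose can be read. Each is the 250 bases before the RefSeq start on GRCm38.p6, read 5′ to 3′ in the gene's direction, at chr6:55336049-55336298 (plus strand) for Aqp1 and chr12:58269259-58269508 (minus strand) for Clec14a. Capitals mark matches to AGGAAG, a motif of the ETS factors that are widely used in endothelial genes, searched on both strands.
Aqp1: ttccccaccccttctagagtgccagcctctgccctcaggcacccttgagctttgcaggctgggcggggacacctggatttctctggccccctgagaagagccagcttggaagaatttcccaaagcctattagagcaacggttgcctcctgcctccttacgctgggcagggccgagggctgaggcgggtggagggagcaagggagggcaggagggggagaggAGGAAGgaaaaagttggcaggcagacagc
Clec14a: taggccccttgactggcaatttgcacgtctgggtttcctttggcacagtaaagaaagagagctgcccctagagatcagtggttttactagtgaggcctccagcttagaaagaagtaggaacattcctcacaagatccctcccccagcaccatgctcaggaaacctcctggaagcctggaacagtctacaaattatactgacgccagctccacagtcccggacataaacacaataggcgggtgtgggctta
Aqp1 held 1 match, whose near end is 24 bases before the start, and Clec14a held 0. Of all 27025 promoters given there, 29.15% held at least 1 match. Of the 40 endothelial genes 24 had a promoter entry, and 12 of those held a match. Among the 7 that rose, 5 had an entry and 1 held a match.

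The remaining endothelial members were not past the threshold. Stab2, a scavenger receptor of sinusoidal cells, was at 18.4, 21.2 and 25.2 CPM without DEN and at 39.6, 35.4 and 30.2 CPM with DEN (0.70 ± 0.16, edgeR adjusted p = 0.0912). Its groups did not overlap, but the step was smaller than in Kdr. Lyve1, a hyaluronan receptor, came closest to the threshold (1.80 ± 0.26, edgeR adjusted p = 0.0501), followed by the endothelial cadherin gene Cdh5 (1.59 ± 0.26) and Mmrn2 (1.92 ± 0.32). Stab1, the paralogue of Stab2, was at 0.39 ± 0.24, with overlapping groups, and Notch1 at -0.01 ± 0.13. The secreted ligands that endothelial cells of the central vein pass to hepatocytes had values of 1.29 ± 0.42 for Wnt2, 1.13 ± 0.53 for Wnt9b and 0.88 ± 0.31 for Rspo3. The hepatocyte genes that depend on Wnt signalling nearby, Glul and Cyp2e1, were at 0.27 ± 0.19 and 0.07 ± 0.16, both with overlapping groups. Of the 26 pericentral hepatocyte genes tested, edgeR called 0 and DESeq2 called 2 higher (5.33% of all genes were), and the median was 0.02. At an unadjusted p under 0.05, 3 were higher (11.5%) and 0 lower, against 10.9% and 12.5% of all genes. The share higher was thus near that of all genes.

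Of the genes that rose outside the endothelial list, Ntn4, a netrin of basement membranes, went from 0.383, 0.463 and 0.502 CPM to 3.20, 2.76 and 2.77 CPM (2.68 ± 0.26, edgeR adjusted p = 0.0375). The 3 libraries of each group lay close together and the groups were far apart. Cnr2, which encodes the cannabinoid receptor of immune cells, went from 0.575, 0.712 and 0.466 CPM to 3.23, 3.0 and 2.03 CPM (2.23 ± 0.31, edgeR adjusted p = 0.0474). Mrc1, the mannose receptor found on sinusoidal endothelium and on macrophages alike, rose by 1.41 ± 0.17, and was the only 1 of 28 Kupffer cell and macrophage genes to pass. Colec10, a collectin that stellate cells produce, rose by 1.4 ± 0.16. Tgfbi, a matrix protein induced by TGF-beta, showed the tightest groups, at 22.5, 23.6 and 22.8 CPM without DEN and 40.6, 41.1 and 41.1 CPM with DEN (0.83 ± 0.09, edgeR adjusted p = 0.0375). Itga9, an integrin subunit (1.51 ± 0.18), Ccdc80, a matrix protein (1.38 ± 0.19), Tspan7, a tetraspanin (1.17 ± 0.13), and Ccnd2, a cyclin of the G1 phase (1.6 ± 0.18), also rose. Except for Ntn4 and Cnr2 these were named after their values were seen.

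Both inducible Hsp70 chaperone genes rose, and 0 of the other 18 cytosolic heat-shock genes did. Hspa1b was at 16.9, 14.7 and 15.7 CPM without DEN and at 59.2, 66.7 and 47.1 CPM with DEN (1.87 ± 0.15, edgeR adjusted p = 0.0217). Hspa1a was at 1.65, 1.07 and 2.36 CPM and at 9.79, 8.54 and 6.56 CPM (2.29 ± 0.32, edgeR adjusted p = 0.0457). In both genes the DEN libraries lay well above the others, with DEN replicate 3 the lowest of the DEN group. Dnajb1, an Hsp40 co-chaperone, was at 0.76 ± 0.13 (edgeR adjusted p = 0.0648), and the heat-shock factor gene Hsf1 at -0.39 ± 0.12. Of all 20 genes, 3 were higher (15%) and 2 lower (10%) at an unadjusted p under 0.05, near the 10.9% and 12.5% of all genes. DESeq2 called 3 higher (5.33% of all genes were), and the median was -0.05. Hspa1a and Hspa1b are near-identical neighbours and their reads can be split between them, so the 2 calls are not independent. Their 250-base promoters show how alike the copies are, with 98.8% identity and 3 differing bases, at chr17:34972157-34972406 for Hspa1a and chr17:34959239-34959488 for Hspa1b (both on the minus strand, RefSeq, GRCm38.p6). Capitals mark GAANNTTC, the core of the heat shock element, searched on both strands.
Hspa1a: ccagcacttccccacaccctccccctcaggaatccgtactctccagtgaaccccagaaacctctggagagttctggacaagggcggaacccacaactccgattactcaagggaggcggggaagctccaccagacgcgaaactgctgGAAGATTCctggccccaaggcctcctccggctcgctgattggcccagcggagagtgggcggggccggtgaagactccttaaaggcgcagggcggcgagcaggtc
Hspa1b: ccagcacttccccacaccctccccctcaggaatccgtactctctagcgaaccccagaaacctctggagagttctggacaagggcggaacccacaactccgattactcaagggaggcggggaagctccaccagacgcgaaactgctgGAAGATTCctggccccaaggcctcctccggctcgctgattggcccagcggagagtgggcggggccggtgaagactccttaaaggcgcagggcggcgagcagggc
Each held 1 match, at the same distance of 97 bases before the start. The motif was present in 6.783% of all promoters in the table and in 5.147% of the 10161 promoters of genes tested.

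The largest rise was in Cyp2b9, a cytochrome P450 of the Cyp2b family that is expressed more in female than in male mouse liver. It was at 0.153, 0.0712 and 0.107 CPM without DEN and at 7.45, 3.20 and 21.0 CPM with DEN (6.53 ± 0.91, edgeR adjusted p = 0.0474). It thus went from near absence to a low level that varied widely among the DEN livers, being highest in DEN replicate 3. The values without DEN rest on 4, 2 and 3 counts, against 258, 108 and 704 with DEN. Cyp2a4, a P450 gene whose reads can be split with Cyp2a5, also higher in females and named after its values were seen, had a larger fold change that did not pass (8.19 ± 1.28, edgeR adjusted p = 0.0548), with the same order of DEN libraries at 25.4, 9.85 and 128 CPM. Of the 35 genes tested in the list of P450 enzymes and their reductase Por, Cyp2b9 was the only 1 called. Cyp2b10, the usual marker of the xenobiotic receptor CAR, was at 2.03, 3.70 and 2.40 CPM without DEN and at 0.808, 1.01 and 2.71 CPM with DEN. Its groups overlapped (-0.84 ± 0.50). Cyp2a5 was at 447, 610 and 240 CPM without DEN and at 1242, 1099 and 1375 CPM with DEN. Every DEN library was above the others, without passing (1.52 ± 0.32, edgeR adjusted p = 0.0817). Of the 35 genes 17 lay above 0 and 18 below. At an unadjusted p under 0.05, 8 were higher and 2 lower (22.9% and 5.71%, against 10.9% and 12.5% of all genes). The activity of CAR was not tested.

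Of 41 conjugation enzyme and NRF2 target genes edgeR called 0, with 10 higher (24.4%) and 4 lower (9.76%) at an unadjusted p under 0.05. The shares of all genes were 10.9% and 12.5%. DESeq2 called 9 higher and 3 lower, where it called 5.33% and 4.44% of all genes. Abcc4, an efflux pump for conjugates and bile salts on the blood side of hepatocytes, went from 0.613, 0.819 and 1.11 CPM to 6.55, 4.15 and 5.04 CPM (2.62 ± 0.31, edgeR adjusted p = 0.0375). Sult2a7, a sulfotransferase of the family that conjugates steroids and bile acids, went from 1.19, 1.25 and 1.0 CPM to 5.63, 3.86 and 7.43 CPM (2.3 ± 0.3, edgeR adjusted p = 0.0457), though reads can be shared within the Sult2a cluster. In both genes the lowest DEN library exceeded the highest other library more than the libraries of a group differed without DEN. Of the 10 efflux pump genes tested, Abcc4 was the only 1 called. Abcb1a, a drug pump, was next at 1.97 ± 0.30 (edgeR adjusted p = 0.0534), and the canalicular pump gene Abcc2 was at 0.59 ± 0.14. Rdh9, a retinol and steroid dehydrogenase gene of liver, rose from 44.9, 42.6 and 41.3 CPM to 81.3, 77.1 and 84.2 CPM (0.91 ± 0.10, edgeR adjusted p = 0.0375).

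Among genes of lipid and creatine metabolism, Scd2, a fatty acid desaturase that adult hepatocytes express little, went from 2.45, 2.10 and 2.90 CPM to 13.1, 7.06 and 12.6 CPM (2.13 ± 0.28, edgeR adjusted p = 0.0457). The groups did not overlap, and DEN replicate 2 was the lowest of the DEN group. It was the only 1 of 27 fatty acid and triglyceride synthesis genes called. In that list 23 of 27 members lay above 0 with a median of 0.50, which was 1.0 without no DEN replicate 3, and DESeq2 called 10 higher and 0 lower. Srebf1, whose product switches on the lipogenic enzymes, was at 77.0, 119 and 171 CPM without DEN and 301, 377 and 363 CPM with DEN (1.51 ± 0.28, edgeR adjusted p = 0.069). Pparg, the adipogenic nuclear receptor, rose from 5.55, 5.30 and 8.89 CPM to 20.9, 20.6 and 18.3 CPM (1.6 ± 0.22, edgeR adjusted p = 0.0457). Pparg is 1 of 17 reported partners of Otud3 and genes of their pathway, and the only 1 called. Cidea and Cidec, lipid droplet proteins, were at 5.03 ± 0.81 and 2.63 ± 0.42 without passing (edgeR adjusted p = 0.0548 for both). Cfd, a marker of adipocytes, was at 0.0766, 1.74 and 6.38 CPM without DEN and at 16.5, 18.2 and 30.5 CPM with DEN (2.98 ± 0.94, edgeR adjusted p = 0.138). Its groups did not overlap. Of the 13 genes listed as fat and muscle markers only 3 were in both tables and tested, Cfd, Adipor2 (0.21) and Mylpf (-0.56). Adipor2 was at 352 to 505 CPM in every library, also where Cfd was at 0.0766 CPM, so it is no specific marker of fat. The part of fat tissue in the values of Pparg, Cidea and Cidec was not tested. Acot11, a thioesterase (1.13 ± 0.16), rose, but it overlaps Fam151a, whose reads cannot be told apart from its own without a stated strand setting. Gatm, the first enzyme of creatine synthesis, went from 0.843, 1.10 and 1.29 CPM to 5.48, 4.95 and 4.09 CPM (2.16 ± 0.25, edgeR adjusted p = 0.0375). Of the metabolic genes, Rdh9, Cyp2b10, Cyp2a5, Abcb1a, Abcc2, Srebf1, Pparg, Cidea, Cidec and Acot11 were named after their values were seen.

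Other genes that rose were also named after their values were seen and ranged from 0.93 to 1.43 on the log2 scale. They were Pcdhgc3, a protocadherin whose locus overlaps the other members of its cluster (1.43 ± 0.16), Tut4, a uridylyltransferase acting on RNA ends (1.15 ± 0.13), and Dock8, a guanine nucleotide exchange factor of leukocytes (1.02 ± 0.14), which overlaps Ndufb4b. Sh3bgrl2 (1.02 ± 0.12), Arhgap23, a GTPase-activating protein overlapping 4933428G20Rik (1.01 ± 0.14), Enpep, the aminopeptidase that cleaves angiotensin II (0.95 ± 0.12), and Rab3d, a GTPase of secretory vesicles (0.93 ± 0.13), also rose.

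The 18 genes that fell had log2 fold changes of -3.28 to -0.65. Nlrp12, a NOD-like receptor that restrains inflammatory signalling, was at 82.2, 68.1 and 60.3 CPM without DEN and at 20.6, 19.5 and 17.8 CPM with DEN. Every DEN library was far below the lowest library without DEN (-1.87 ± 0.14, edgeR adjusted p = 0.0217). Pim1, a kinase induced by cytokines through STAT factors, was at 27.5, 25.1 and 20.2 CPM and at 10.7, 10.1 and 9.96 CPM (-1.24 ± 0.14, edgeR adjusted p = 0.0375). Map3k5, the stress kinase ASK1, was at 53.5, 48.3 and 44.4 CPM and at 26.3, 27.5 and 29.2 CPM (-0.82 ± 0.11, edgeR adjusted p = 0.0457). In all 3 genes no DEN replicate 1, the library with high acute phase genes, was the highest, but the groups were apart without it too.

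Mup10, a major urinary protein that male hepatocytes secrete, was at 1554, 1575 and 2071 CPM without DEN and at 812, 614 and 685 CPM with DEN (-1.30 ± 0.18, edgeR adjusted p = 0.0474). It belongs to a family of near-identical genes between which reads can be split. Cyp2b9, which is higher in females, and Mup10 were the only 2 called of 37 growth hormone-dependent and sex-biased genes. The list mixes genes higher in males with genes higher in females, so its median has no single meaning. Of the 37 genes 26 lay below 0 (median -0.33, -0.20 without DEN replicate 3 and -0.04 with library size scaling). F11, coagulation factor XI, went from 83.5, 84.1 and 91.2 CPM to 47.9, 48.0 and 54.1 CPM (-0.79 ± 0.10, edgeR adjusted p = 0.0457). The groups did not overlap, and F11 was the only 1 of 35 complement and coagulation genes called. Pfkfb1, the liver enzyme that sets fructose 2,6-bisphosphate, was at 53.1, 66.7 and 60.2 CPM and at 28.1, 28.0 and 34.3 CPM (-0.99 ± 0.14, edgeR adjusted p = 0.0457), and it overlaps Apex2. Slc17a3, an organic anion transporter gene, fell by 0.70 ± 0.09 on the log2 scale and Gramd1c, a sterol transfer protein gene, fell by 0.65 ± 0.09. F11, Slc17a3 and Gramd1c were named after their values were seen.

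Josd2, like Otud3 a deubiquitinase, went from 32.1, 46.1 and 37.7 CPM to 15.2, 18.5 and 17.0 CPM (-1.20 ± 0.16, edgeR adjusted p = 0.0457). It was the only 1 called of 41 deubiquitinase genes, whose median was -0.04. Fkbp11, a prolyl isomerase of the endoplasmic reticulum, went from 18.2, 18 and 16.1 CPM to 8.54, 6.88 and 7.88 CPM (-1.17 ± 0.13, edgeR adjusted p = 0.0375). Of the 30 endoplasmic reticulum chaperone and unfolded protein response genes edgeR called 0 and DESeq2 5 lower (4.44% of all genes were). Their median was -0.32, with 25 below 0. At an unadjusted p under 0.05, 7 were lower (23.3%, against 12.5% of all genes) and 0 higher. The median was -0.18 without no DEN replicate 1, and with library size scaling it was -0.02 with 12 above 0. Hspa5, the chaperone BiP, was at -0.15 ± 0.21. Ccnf, a cyclin that directs ubiquitin ligase targets, fell by 0.99 ± 0.13 on the log2 scale, Nrbp2, a pseudokinase, by 1.0 ± 0.14, Cecr2, a chromatin remodelling factor, by 0.85 ± 0.11 and Fam25c by 1.10 ± 0.16. Rsc1a1 lies within Ddi2, and its value (-1.15 ± 0.14) cannot be told apart from that of Ddi2. The predicted genes Gm41885 (-3.28 ± 0.33), Gm39972 (-1.94 ± 0.26) and Gm39701 (-1.34 ± 0.13) fell too. The first 2 of them were not matched to RefSeq.

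**Figure D3:**
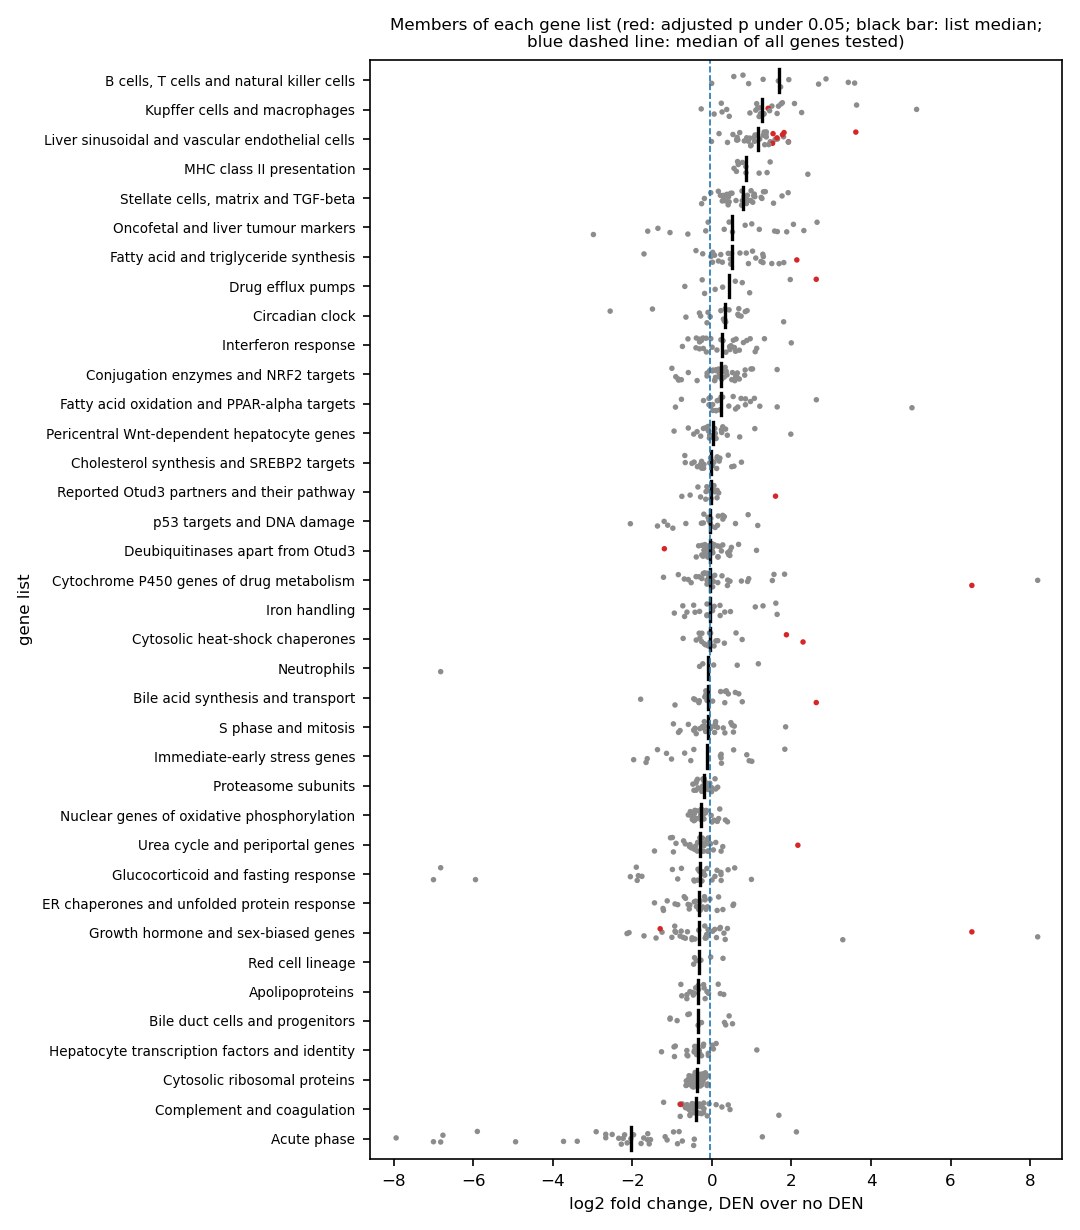
Log2 fold change with DEN (x axis) of the tested members of each gene list with at least 5 tested (y axis, ordered by median), 1 point per gene. Red points passed the threshold, the black bar is the list's median and the blue dashed line the median of all genes. The endothelial list (median 1.16) holds 7 red points, while the lymphoid (1.70), Kupffer cell (1.26) and acute phase (-2.04) lists lie as far from 0 with 0, 1 and 0.

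Macrophage, lymphoid and MHC class II genes lay above 0 in nearly all members, by an amount that depended on DEN replicate 1. Of 28 Kupffer cell and macrophage genes 27 lay above 0 (median 1.26), 1 was called (Mrc1, above) and 13 had every DEN library above the others (14.4% of all genes did). Adgre1, the macrophage marker F4/80, was at 3.83, 1.92 and 1.18 CPM without DEN and at 72.6, 7.68 and 5.73 CPM with DEN (3.64 ± 1.09, edgeR adjusted p = 0.13), and its value was 1.56 without DEN replicate 1. Clec4f, which marks resident Kupffer cells, was at 58.7, 57.3 and 37.9 CPM and at 58.0, 67.3 and 58.5 CPM. Its groups overlapped (0.26 ± 0.18), and DEN replicate 1 was not high in it. The list's summed level was 503, 383 and 278 CPM without DEN and 1870, 609 and 551 CPM with DEN. Without DEN replicate 1 the list's median was 0.54, 26 members lay above 0 and Mrc1 was not called.

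Of 24 B cell, T cell and natural killer cell genes only 12 had enough counts to be tested, with 0 called by edgeR and 2 higher by DESeq2, 6 higher and 0 lower at an unadjusted p under 0.05, and a median of 1.70, which was 0.68, with 10 of 12 above 0, without DEN replicate 1. Cd79a, a B cell receptor subunit, was at 0.230, 0.427 and 0.322 CPM without DEN and at 10.4, 0.712 and 0.806 CPM with DEN (3.59 ± 1.18, edgeR adjusted p = 0.146), and its value was 1.23 without DEN replicate 1. The T cell marker Cd3e was too low to test, at 0.808 CPM or less in every library. All 11 MHC class II presentation genes tested lay above 0 (median 0.85, and 0.54 with all 11 above 0 without DEN replicate 1), 9 were higher at an unadjusted p under 0.05, and edgeR called 0 and DESeq2 4 higher. Cd74, the invariant chain, was at 26.5, 37.0 and 33.2 CPM and at 77.3, 51.6 and 45.8 CPM (0.85 ± 0.22, edgeR adjusted p = 0.109). For endothelial genes DEN replicate 1 did not stand apart, since their sum in it lay between those of the other 2 DEN libraries, and without it the endothelial median was 1.19.

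Stellate cell, matrix and TGF-beta genes were above 0 in 36 of 39 members (median 0.79, and 0.79 without DEN replicate 1). None passed by edgeR, 19 were higher (48.7%, against 10.9% of all genes) and 0 lower at an unadjusted p under 0.05, and DESeq2 called 13 higher. Without no DEN replicate 1 the median was 0.64 and 3 members rose. Without no DEN replicate 3 it was 1.05 and 8 members rose. The summed level of the 41 list genes in both tables was 2302, 1475 and 1252 CPM without DEN and 1720, 1792 and 1790 CPM with DEN. These sums overlapped, with no DEN replicate 1 the highest. Bgn, a proteoglycan of matrix, was closest, at 41.9, 54.2 and 55.2 CPM without DEN and 85.6, 101.2 and 89.4 CPM with DEN (0.87 ± 0.14, edgeR adjusted p = 0.0556). Tgfb1, the cytokine TGF-beta itself, was at 3.79, 3.81 and 2.87 CPM and at 17.1, 9.17 and 9.25 CPM (1.76 ± 0.29, edgeR adjusted p = 0.0568). In both the groups did not overlap, and in Tgfb1 the highest was DEN replicate 1. Col1a1, a chain of type I collagen, was at 3.14, 1.99 and 3.26 CPM and at 5.51, 6.85 and 3.22 CPM, with overlapping groups (0.89 ± 0.33).

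**Figure D4:**
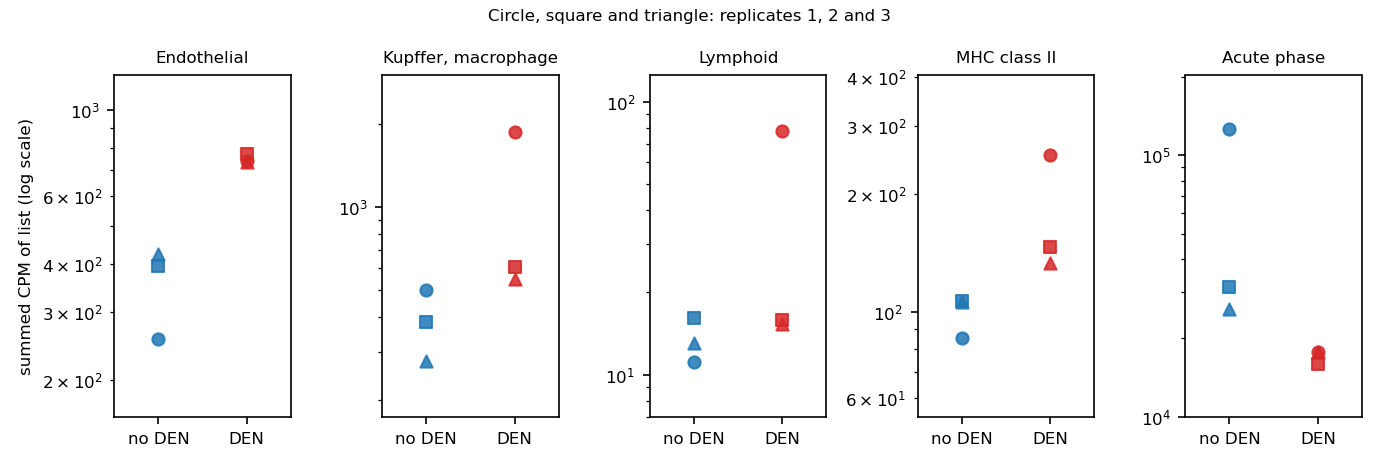
Summed CPM (y axes, log scale, a different range in each panel) of 5 gene lists in the 3 libraries without DEN (blue) and the 3 with DEN (red), with replicates 1, 2 and 3 as circle, square and triangle. Endothelial sums are 256 to 423 against 734 to 769, whereas the Kupffer cell and lymphoid sums are highest in DEN replicate 1 and the acute phase sum in no DEN replicate 1 (126134).

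Acute phase and related inflammatory genes, many of which hepatocytes make in response to inflammatory cytokines, lay below 0 in 33 of 35 members (median -2.04). None passed by edgeR, 27 were lower and 2 higher at an unadjusted p under 0.05, and 21 had every DEN library below the others (17.5% of all genes did). DESeq2 called 11 lower and 2 higher. Their sum was 126134, 31303 and 25890 CPM without DEN and 17744, 15902 and 17673 CPM with DEN. The groups did not overlap, but no DEN replicate 1 held more than the other 5 libraries together, and without it the median was -0.75. Saa1, serum amyloid A, was at 8378, 184 and 49.0 CPM without DEN and at 38.9, 14.6 and 26.0 CPM with DEN (-6.76 ± 1.99, edgeR adjusted p = 0.126), and at -2.11 without no DEN replicate 1. The fibrinogen gene Fgb was lower in every DEN library (-1.61 ± 0.39, edgeR adjusted p = 0.0991). Against the direction of the list, the adhesion gene Vcam1, which endothelial cells carry, was at 1.27 ± 0.23 (edgeR adjusted p = 0.0648). The chemokine gene Ccl2 was the other member above 0, at 2.12 ± 0.45 (edgeR adjusted p = 0.0805), with means of 0.184 CPM without DEN and 0.811 CPM with DEN. Of the 6 neutrophil genes tested edgeR and DESeq2 called 0, with 0 higher and 1 lower (16.7%, against 12.5% of all genes) at an unadjusted p under 0.05 by edgeR. In the list 3 lay above and 3 below 0 (median -0.09). That median was -2.10 without DEN replicate 1 and 0.54 without no DEN replicate 1. S100a8 was at 2.34, 0.463 and 1.15 CPM without DEN and at 2.68, 0.148 and 0.328 CPM with DEN, with overlapping groups, and its value was -2.41 without DEN replicate 1.

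Several other lists lay mostly below 0 with few calls. Of 35 complement and coagulation genes 30 lay below 0 (median -0.40, -0.22 without no DEN replicate 1 and -0.10 with library size scaling), 1 fell (F11) and 0 rose. F8, which sinusoidal endothelium makes, went the other way, at 2.07, 4.02 and 3.33 CPM without DEN and 9.61, 10.6 and 10.1 CPM with DEN (1.68 ± 0.25, edgeR adjusted p = 0.0528). Thpo, thrombopoietin, was at -1.21 ± 0.18 (edgeR adjusted p = 0.0534). Of 36 urea cycle and periportal genes 31 lay below 0 (median -0.29) with Gatm, which rose, the only 1 called. The median was -0.14 without no DEN replicate 3, and with library size scaling it was -0.02 with 18 above 0. All 64 cytosolic ribosomal protein genes lay below 0 with a narrow spread around a median of -0.38. In 57 of them every DEN library was below the others (17.5% of all genes). By edgeR 0 were called and by DESeq2 33, all lower (4.44% of all genes were). With library size scaling the median was -0.09 and 17 lay above 0. Alb, albumin, was at 53342, 74926 and 88168 CPM without DEN and at 53691, 53497 and 57593 CPM with DEN (-0.39 ± 0.23, edgeR adjusted p = 0.33), with overlapping groups. Fkbp5, a target of the glucocorticoid receptor, was at 169, 147 and 70.2 CPM and at 26.8, 41.4 and 35.1 CPM. Its groups did not overlap, and its fold change was -1.90 ± 0.34 (edgeR adjusted p = 0.0648). Of 32 glucocorticoid and fasting response genes 23 lay below 0, with a median of -0.30. Without no DEN replicate 3 the median was 0.02 with 17 above 0. In that list edgeR called 0 and DESeq2 7 lower (4.44% of all genes were). At an unadjusted p under 0.05, 10 were lower (31.25%, against 12.5% of all genes) and 0 higher. Zbtb16 was at -1.88 ± 0.33, while Sgk1 (0.41 ± 0.40) and Tsc22d3 (-0.26 ± 0.47) had overlapping groups. The clock gene Per1, also in that list, was at 0.22 ± 0.14.

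In the lists of S phase and mitosis genes and of tumour markers edgeR called 0. The cyclin genes Ccnd2, which rose, and Ccnf, which fell, are in neither list. Of 28 S phase and mitosis genes tested 12 lay above 0 and 16 below (median -0.11, and 0.17 with library size scaling). At an unadjusted p under 0.05, 2 were higher (7.14%, against 10.9% of all genes) and 0 lower. DESeq2 called 1 higher, the cyclin gene Ccne2 (edgeR 1.85 ± 0.47, edgeR adjusted p = 0.104). Mki67, the antigen of cycling cells, was at 0.728, 1.21 and 0.967 CPM without DEN and at 1.36, 0.920 and 1.37 CPM with DEN, with overlapping groups (0.33 ± 0.32, edgeR adjusted p = 0.571). Of 19 oncofetal and liver tumour marker genes 12 lay above 0 (median 0.52, and 0.98 with 1 called without no DEN replicate 3). At an unadjusted p under 0.05, 6 were higher (31.6%) and 1 lower (5.26%), against 10.9% and 12.5% of all genes. DESeq2 called 3 higher (5.33% of all genes were). With at least 1 CPM in every library 6 of the 19 were left, with a median of -0.10. Afp, alpha-fetoprotein, was at 0.613, 0.819 and 0.788 CPM and at 1.65, 0.860 and 4.15 CPM (1.58 ± 0.58, edgeR adjusted p = 0.173). Every DEN library lay above the others, with DEN replicate 3 far the highest, and without that library the value was 0.78. The bile duct keratin Krt19 (-1.05 ± 0.69) and the red cell gene Hbb-bs (-0.28 ± 0.74) had overlapping groups. Hbb-bs was high in replicate 1 of both groups, at 361 and 270 CPM against 78.5 to 79.9 CPM in the other 4 libraries. Prss2, a marker of pancreas, was listed in neither table.

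The genes called in labelled-knockout livers were then set beside the DEN effect in wild-type livers, which shares no library with them. For wild-type mice without DEN, too, the labels give neither an age at collection nor a saline injection. Age and injection therefore cannot be told apart from DEN in either genotype. With the 6 wild-type libraries fitted alone, 50 of the 52 genes (96.2%) had the same direction, and 33 of the 52 (63.5%) had it with an unadjusted p under 0.05. Of all 12445 genes tested in both, 69.3% had the same direction and 20.04% had it with an unadjusted p under 0.05. One wild-type DEN library, replicate 2, is unlike the other 11 in many genes. Without it all 52 genes had the same direction and 46 (88.5%) an unadjusted p under 0.05, against 72.2% and 27.4% of all genes. Kdr was at 1.39 in wild type and 1.33 without that library, against 1.81 in labelled knockout. Aqp1 was at 1.26 and 1.4 against 1.54, and Josd2 at -1.19 and -1.17 against -1.20. The wild-type values of Cyp2b9, Esm1 and Scd2 were 6.28, 6.18 and 7.17 with that library and 2.31, 3.02 and 2.03 without it. The genes with the opposite sign in the 6-library fit were Fkbp11 (1.38, and -0.13 without that library) and Rdh9 (-0.07, and 0.50 without it).

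The difference between the DEN effects of labelled knockout and wild type was tested as an interaction over all 12 libraries. By edgeR 0 of 12909 genes passed (smallest adjusted p 0.735), with 842 at an unadjusted p under 0.05 (6.52%). DESeq2 called 13 genes and limma-voom 0, and none of the 13 was among the 52. Among the 52 genes, 9 had an unadjusted interaction p under 0.05. Hspa1a was 1 of them, at 4.56 ± 0.50 in wild type against 2.29 ± 0.32 in labelled knockout, an interaction of -2.26 ± 0.58 (edgeR adjusted p = 0.735). None of the 52 calls is thus shown to differ between the genotypes, nor to be the same. For Kdr the difference was 0.44 ± 0.28 (SE) and for Josd2 0.01 ± 0.23.

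**Figure D5:**
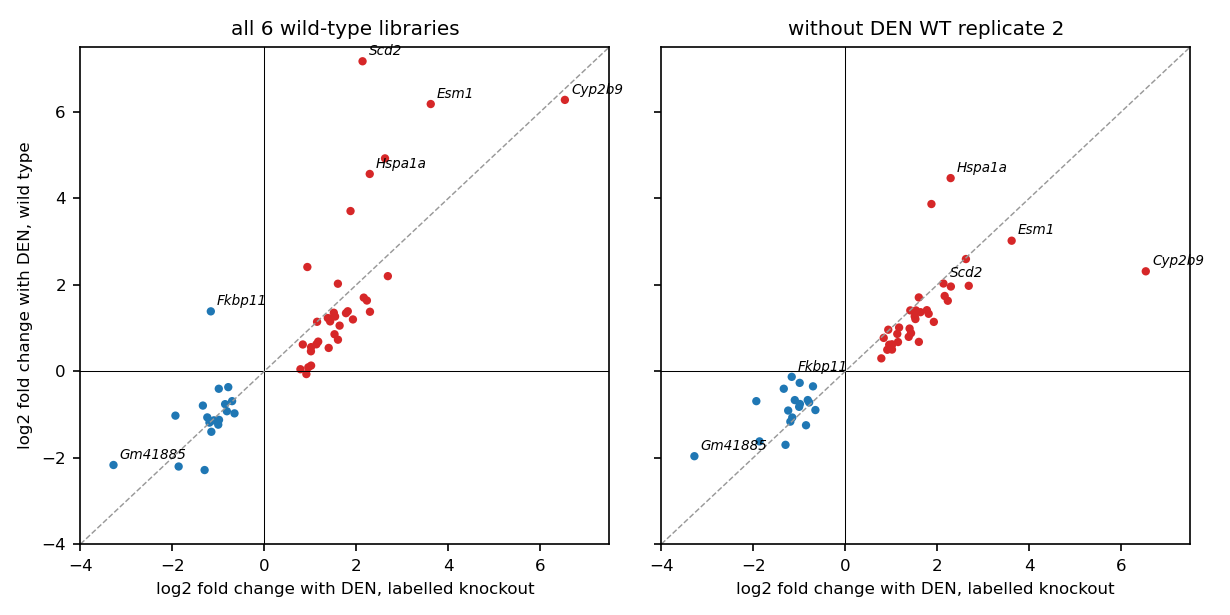
Log2 fold change with DEN in wild-type livers (y axis) against that in labelled-knockout livers (x axis) for the 52 genes called in the latter, red for genes that rose and blue for genes that fell, with all 6 wild-type libraries (left) and without DEN WT replicate 2 (right). The dashed line marks equal values. Without that library all 52 points share their sign, and Hspa1a lies above the line in both panels.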

How the data were processed

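RNA was measured by RNA-seq of liver. Per the file headers, each deposited table (1 per group) gives a read count and a TPM per gene for each of its 3 libraries. Since 6.58% to 7.39% of values per library were not whole, the authors' deposited counts are taken to be expected counts that were estimated for each gene. The deposited TPM values, per the file headers a length-scaled share, were used for Otud3 and for genes listed in 1 table. In each knockout table the lowest TPM in any library was 0.01, so an absent gene is not a measured 0. The build was GRCm38.p6, and the tools were RSEM 1.3.1, HISAT2 2.2.1, DESeq2 1.4.5 and Bowtie2 2.3.4.3, per the submitters' processing notes. Their roles and the strand setting were not given in the sources used here.

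The 13744 genes in both knockout tables, holding at least 99.98% of each library's counts, were joined by gene ID. Counts were rounded, filtered with filterByExpr (12665 genes left), scaled by TMM and fitted for the 6 libraries alone with edgeR 4.0.16 (glmQLFit robust, glmQLFTest, 4 residual degrees of freedom), with Benjamini-Hochberg adjustment over all genes and a threshold of 0.05. Values after ± are standard errors of log2 fold changes. The steps were tested on simulated data. There 51% of 2-fold and 90% of 4-fold changes were called, in genes with a mean of at least 1 CPM. A gene that was not called may therefore still have changed. Replicates differed by more than counting noise (chi-square over its degrees of freedom was 27.4 to 429.6 for pairs of a group). DESeq2 1.42.0, limma-voom (limma 3.58.1), other scalings and filters, a replicate block and leaving out libraries were alternatives. Counts limit the precision of genes under about 1 CPM. IDs of 12639 tested genes matched RefSeq.

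The comparison, gene lists and alternatives were chosen with earlier results of these data known, and the lists were not put to a set test. The rule for named genes took Otud3, the 12 largest changes each way among genes called whose mean CPM was 1 or more and whose groups were apart (no predicted models), up to 5 of smallest p in lists with 3 or more called, a fixed set of markers and the 5 genes of highest TPM listed in 1 table. Every other gene named was chosen after its values were seen. Of the genes called, 1 is not reported here by name.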

Additional observations from a re-analysis of the deposited data

Results flagged for a closer look

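These results concern genes listed in the DEN table of labelled-knockout livers and not in the table without DEN, which entered no test. There were 721 such genes, of which 8 had a mean TPM of at least 1, and 191 genes were listed only in the table without DEN, of which 5 did. Since the lowest TPM listed in any library was 0.01, absence is not a level of 0, and no fold change is given.

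The 5 with the highest mean TPM with DEN were Cd209f, Slc15a2, Cyp2b13, Cd209g and Cdkn2a. Cd209f, a lectin of myeloid cells, had a mean TPM of 7.1, made almost wholly by DEN replicate 1 (20.99, against 0.13 and 0.18). Cd209g, of the same family, had a mean TPM of 1.62 with 4.75 in DEN replicate 1 and 0.07 and 0.05 in the others, and DEN replicate 1 is also the library with high macrophage and B cell genes. Slc15a2, a peptide transporter gene, was present in all 3 livers, at 2.74, 2.3 and 4.88 (mean TPM 3.31). Cyp2b13, the female-biased neighbour of Cyp2b9, was at 1.25, 0.57 and 3.06 (mean TPM 1.63), the same order of livers as Cyp2b9. In wild type, Slc15a2 and Cyp2b13 were listed both with DEN and without it. Cdkn2a, which encodes the cell cycle inhibitors p16 and p19, was at 2.09, 1.22 and 0.47 (mean TPM 1.26) on 31, 18 and 7 counts, and it was also listed in the wild-type table with DEN and not in the wild-type table without it. Of the 721 genes, 185 shared that pattern in wild type.

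Among genes listed only without DEN, the highest mean TPM were 2.52 for Cphx2, 2.35 for Gm14296, 2.04 for Rps27rt, 1.79 for Retnlg and 1.1 for Tgtp1. Retnlg, a resistin-like gene of neutrophils, was at 4.11 in no DEN replicate 1 and at 0.68 and 0.57 in the others.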

How the results depend on the processing

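The number of genes called was the least stable result. Against 52 it was 839 with library size scaling, 1237 with DESeq2, 1780 with limma-voom quality weights, 25 with all 12 libraries fitted, 912 with 11 libraries (no DEN WT replicate 2) and 0 to 197 on leaving out each library. It was 1 without both libraries numbered 1, an alternative chosen after seeing the data. With a replicate block it was 10, of which 5 were among the 52; the deviations of same-numbered libraries correlated at 0.22, -0.01 and 0.25, so the numbers are not shown to pair the mice. The other 7 settings gave 40 to 53. Each of the 52 genes kept its direction wherever it was fitted, and each lost its call in 5 to 14 of 20 alternatives (median 7). The interaction gave 13 genes with DESeq2 and 0 otherwise. Some results that were not called changed sign. With library size scaling these included Otud3 (0.26), S100a8 (0.033), Hbb-bs (0.084), Hspa5 (0.15) and the proliferation median (0.17, and 0.0012 with at least 1 CPM in every library, where the oncofetal median was -0.10). The heat-shock (0.25), deubiquitinase (0.25) and neutrophil (0.24) medians changed sign with that scaling too. With quality weights the changes of sign included Otud3 (0.088), Krt19 (0.22), Hbb-bs (0.052), Mki67 (-0.038), Cyp2e1 (-0.044), Hspa5 (0.14) and the pericentral median (-0.011). Otud3 was at 0.011 with limma-voom and 0.0052 with the replicate block, and without both libraries numbered 1 Otud3 was at 0.45 and Hbb-bs at 0.022. Leaving out each library gave ranges of -0.25 to 0.30 for Otud3, -2.41 to 0.41 for S100a8, -1.1 to 0.87 for Hbb-bs, -0.28 to 0.040 for Hspa5 and -0.16 to 0.016 for the proliferation median. It gave -0.11 to 0.13 for the heat-shock median and -0.075 to 0.084 for the deubiquitinase median. For the neutrophil and pericentral medians the ranges were -2.10 to 0.54 and -0.059 to 0.10. The causes were not tested. Genes of a few counts, such as Cyp2b9 without DEN, are limited by depth.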
